A study of Mus musculus with 81 samples.

Results

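The deletion of the histone H3.3 genes was followed on day 3 of macrophage culture, the earliest point of the time course, in 6 RNA-seq libraries of cells labelled BMDM progenitors. There were 3 WT and 3 cKO libraries, out of 18 in the time course of days 3, 5 and 7 and 81 in the whole series, and they were taken by genotype and day as labelled, so that no measured value entered the choice. WT cells carried H3f3a fl/fl and H3f3b fl/fl, with loxP sites around exon 2 of H3f3a and, by the methods of the study, around all 4 exons of H3f3b, and no cre. The cKO cells carried the same floxed alleles together with LysM cre/cre, in which the recombinase sits in both copies of the lysozyme gene Lyz2. Marrow was flushed from the leg bones of young adult C57BL/6 mice and grown in medium conditioned by L929 cells, which supplies macrophage colony-stimulating factor (M-CSF). Because cre is made only in cells that have switched on Lyz2, that is granulocytes, monocytes and macrophages, a day 3 culture can also hold cells that never recombined. No group had cre without floxed alleles on this day, so the deletion of the H3.3 genes, the presence of cre and the loss of Lyz2 cannot be told apart here. The labels call the 3 libraries of each genotype biological replicates without naming the animals. The p-values measure the spread between libraries of a group, estimated jointly over all 18 time course libraries and not over the 6 of day 3 alone.

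H3.3 is the H3 variant that is placed on chromatin outside of S phase, at transcribed genes, enhancers, telomeres and silenced repeats, and a pair of genes, H3f3a and H3f3b, encode the same protein. Type I interferons such as interferon-beta bind the receptor IFNAR, and the kinases JAK1 and TYK2 then activate factors such as STAT2, which with IRF9 takes part in binding the interferon-stimulated response element (ISRE) in the promoters of interferon-stimulated genes. Many of the proteins made in this way sense foreign or misplaced nucleic acid, block viral replication or present peptides, and IRF7 among them feeds back on interferon transcription.

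The 6 libraries held 15794452 to 18996386 counts on genes, and reads outside annotated exons made up 7.22 to 15% of a library, with overlapping ranges in WT and cKO. The genotypes separated on the first principal component (58.6% of the variance of log2 CPM), and replicate 1 of either genotype separated from replicates 2 and 3 on the second (21.6%). A single noncoding gene, Gm26917, took 13.8, 17 and 16.8% of the counts in the WT libraries and 23.4, 24.3 and 16.9% in the cKO libraries. Levels are given as counts per 1000000 counts on genes (CPM) after TMM scaling. In the macrophage list, which includes Csf1r, Itgam and Adgre1, 19 of 20 genes passed the filter on low counts and their summed level was 10210 to 14990 CPM in WT and 10560 to 11590 CPM in cKO, whereas the 19 progenitor markers that passed summed to 534 to 899 CPM in WT and 969 to 1391 CPM in cKO. Markers of both stages were thus present in all libraries, with Csf1r, the M-CSF receptor, at 1118 to 1706 CPM and Kit, a receptor of early progenitors, at 9.50 to 26.3 CPM.

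The targeted genes were read first. H3f3a (chromosome 1) had 59.4, 49.2 and 56.2 CPM in WT libraries 1, 2 and 3 and 15.3, 15.2 and 14.5 CPM in the cKO libraries. All cKO libraries lay far below all WT libraries, and the fall was called (log2FC, the log2 fold change of cKO against WT ± its SE, -1.87 ± 0.16, adjusted p 6.63e-06). Every adjusted p here comes from the quasi-likelihood test of edgeR with Benjamini-Hochberg adjustment over all genes tested. H3f3b (chromosome 11) had 249, 231 and 222 CPM in WT and 175, 222 and 208 CPM in cKO. Here the groups touched, and the difference was not called (log2FC -0.21 ± 0.16, adjusted p 0.47). The count of H3f3a also takes in the exons that stay after the deletion. For H3f3b the floxed stretch holds all exons, so its count bears on the deletion, and in the libraries labelled cKO it averaged 86.3% of the WT level. A loss of H3f3b transcripts was thus not shown by these counts, and the log2FC ran from -0.29 to -0.14 over the alternatives. The study states that both genes were deleted by day 3, and that deletion of H3f3b appeared to vary from partial to complete. By western blot it showed loss of H3.3 protein in day 7 macrophages. Lyz2, the macrophage lysozyme whose locus carries cre, went from 13166, 8636 and 10217 CPM to 19.4, 6.77 and 9.72 CPM, with every cKO library far below every WT library (log2FC -9.80 ± 0.59, adjusted p 1.5e-07). Within 5 Mb on either side of Lyz2, 49 other genes were tested and 2 were called, 4933412E12Rik and Srgap1, both higher in cKO. Over all genes tested, 8.65% were called and 6.0% were higher, so the calls near Lyz2 were not in excess. The call of 4933412E12Rik was lost without any 1 of the 6 libraries (adjusted p up to 0.0921).

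**Figure D1:**
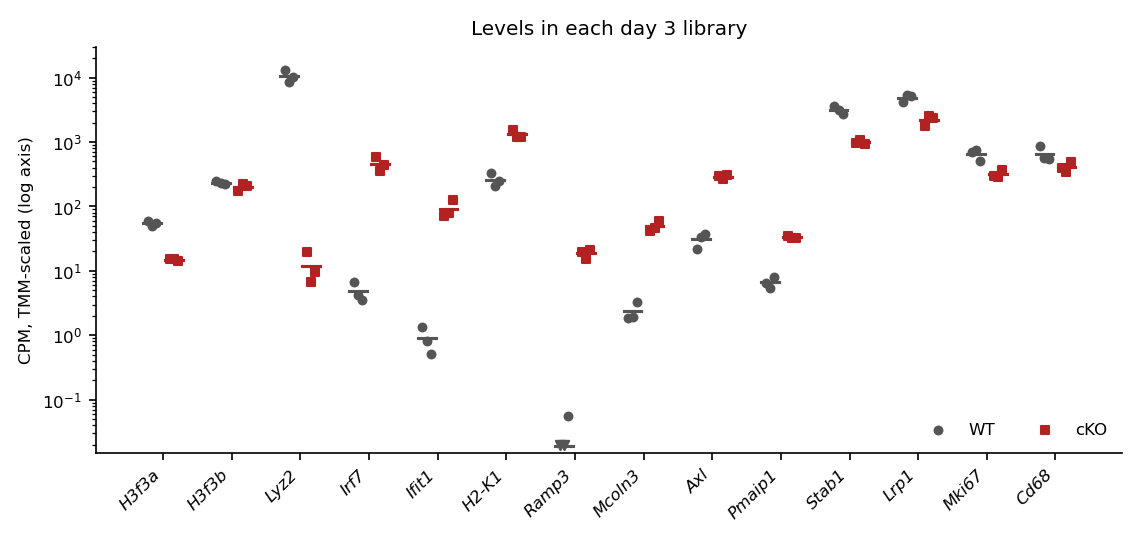
Level of 14 genes in each day 3 library, in TMM-scaled CPM on a log axis, with WT libraries as grey circles, cKO libraries as red squares and the mean of 3 as a bar; downward triangles at the foot of the axis mark libraries with 0 counts. H3f3a falls from 49.2 to 59.4 CPM in WT to about 15 CPM in cKO while H3f3b overlaps, Irf7, Ifit1, Ramp3, Mcoln3 and Axl lie higher in every cKO library, and Stab1 and Lrp1 lie lower.

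Across the genome the cKO cells gained more transcripts than they lost. Of 15955 genes tested, 1380 (8.65%) were called, 958 of them higher in cKO (6.0%) and 422 lower (2.64%). The rises were also larger, with a median log2 fold change of 1.77 among the called higher genes and of -0.68 among the called lower genes, against 0.04 over all genes tested. A log2 fold change above 2 was reached by 406 of the rises and one below -2 by 17 of the falls, and above 4 by 120 and below -4 by 2. All cKO libraries lay above all WT libraries in 2920 genes (18.3% of those tested) and below them in 2516 (15.8%), and 1366 of the 1380 called genes were free of overlap. The split depended on the model: the rises made up 69.4% of the calls with all 18 time course libraries in one fit, 58.4% in DESeq2, and 53% of 2406 calls when only the 6 day 3 libraries were fitted. Same-numbered WT and cKO libraries deviated together on day 3, but some differently numbered ones did so too. With the replicate number as a block there were 1674 calls in the fit of 18 libraries and 3031, 1601 of them higher, in that of 6.

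**Figure D2:**
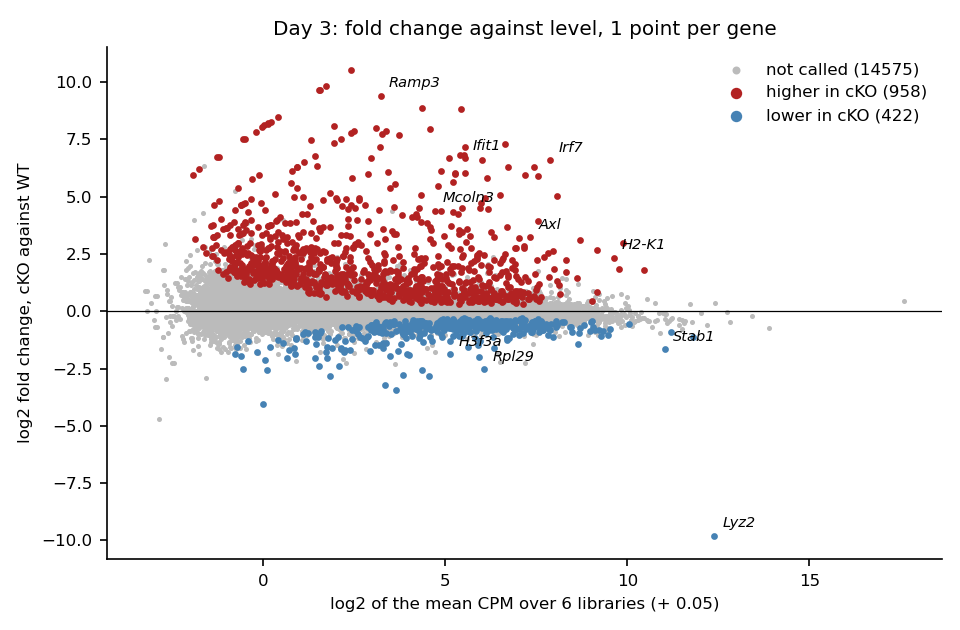
Each point is 1 of 15955 genes, with the log2 of its mean CPM over the 6 day 3 libraries on the x axis and the log2 fold change of cKO against WT on the y axis; red points were called higher (958), blue lower (422) and grey not called. The red points reach far above 4 on the y axis, whereas nearly all blue points lie between 0 and -2, with Lyz2 alone near -10.

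Rises and falls were called at different levels of expression. When the tested genes were divided into 5 equal groups of 3191 by their mean level over the 6 libraries, the calls from the lowest to the highest group were 221, 281, 205, 132 and 119 higher and 9, 42, 107, 118 and 146 lower. Rises made up 6.9% of the lowest group and 3.7% of the highest, against 6.0% of all genes. Falls made up 0.28% and 4.6%, against 2.64%. In the highest group the falls thus outnumbered the rises. A gene of low level can pass the filter through the genotype in which it is higher, and small changes are harder to call at low counts. How far these limits shape the split was not tested.

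**Figure D3:**
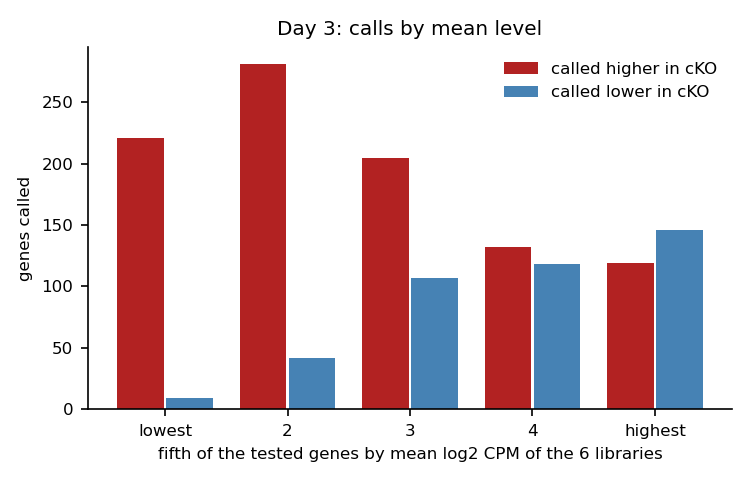
Number of genes called higher (red) and lower (blue) in cKO on day 3 in each of 5 groups of 3191 tested genes, ordered by mean log2 CPM over the 6 libraries. Rises go from 281 in the second group to 119 in the highest, and falls from 9 in the lowest to 146 in the highest.

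Interferon effector genes rose almost throughout, and the ligands and regulators in part. Among the ligands, Ifnb1 (interferon-beta) had 1, 0 and 0 counts in the WT libraries and 44, 13 and 16 in the cKO libraries, or at most 0.0682 CPM against 2.77, 0.889 and 0.836 CPM. Every cKO library was above every WT library, and the ratio of summed, scaled counts was 72.8 (95% exact interval 12.7 to 2915, covering counting error only; adjusted p 0.00801). Without cKO replicate 1 the adjusted p was 0.0585. The other 20 interferon genes listed, 13 of them Ifna genes, did not pass the filter, and in the 6 libraries the Ifna genes and Ifng gave 1 count in all.

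Of the 19 genes listed as interferon regulators, from receptor to transcription factor, 8 rose (42.1%, against 6.0% of all genes) and 1 fell (5.26%, against 2.64%). Without WT replicate 2 the rises numbered 5. IRF7 is the factor that amplifies interferon transcription. Irf7 had 6.68, 4.22 and 3.48 CPM in WT and 592, 352 and 448 CPM in cKO. All cKO libraries stood far above all WT libraries, and the log2FC was 6.61 ± 1.03 (adjusted p 0.000872). Irf9, the DNA-binding partner of STAT2, went from 27.6, 26.7 and 21.2 CPM to 85.7, 82.7 and 85.8 CPM with little spread (log2FC 1.75 ± 0.20, adjusted p 6.83e-05). Stat2 rose from 36.0, 37.3 and 33.1 to 223, 244 and 290 CPM (log2FC 2.83 ± 0.43, adjusted p 0.000761). Irf1 also rose, by 1.61 on the log2 scale (SE 0.25, adjusted p 0.000778). The gene that fell was Ifnar1, a chain of the type I interferon receptor, with 253, 210 and 217 CPM in WT and 186, 155 and 165 CPM in cKO (log2FC -0.42 ± 0.10, adjusted p 0.0119, and 0.0712 without cKO replicate 2).

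Of 46 interferon effector genes tested, 43 rose (93.5%, against 6.0% of all genes) and none fell. The gene lists of this report were chosen with earlier results of these data known. Their shares therefore describe the members and are not tests of enrichment. In 45 of the 46, against 18.3% of all genes, all cKO libraries lay above all WT libraries. The median log2 fold change of the 46 was 4.64. Their summed level was 738 to 948 CPM in the WT libraries and 5353 to 7219 CPM in the cKO libraries. Ifit1, which binds viral RNA lacking the host cap, had 1.36, 0.821 and 0.505 CPM in WT and 70.2, 79.6 and 125 CPM in cKO (log2FC 6.70 ± 1.05, adjusted p 0.000872). Rsad2 (viperin, an antiviral enzyme of the endoplasmic reticulum) went from 4.70, 1.82 and 1.57 to 193, 166 and 262 CPM, and Isg15, a ubiquitin-like modifier, from 1.77, 1.23 and 1.12 to 113, 66.4 and 93.8 CPM. For both, the groups were far apart, with log2 fold changes of 6.29 (SE 1.01, adjusted p 0.00103) and 6.06 (SE 1.14, adjusted p 0.00323). Mx1, a GTPase that blocks influenza virus, rose by 6.02 on the log2 scale (SE 0.80, adjusted p 0.000272), Oasl2 by 6.28 (SE 0.89, adjusted p 0.000423) and Oas2, which makes the second messenger 2-5A, by 4.95 (SE 0.60, adjusted p 0.000133). In WT cells these genes were expressed at a low level but were not silent.

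The promoters of 3 of these genes are shown beside those of Mcoln3 and Ramp3, which also rose and lie outside the interferon lists, to show where the ISRE core lies. Each line gives the 250 bases before the transcription start from RefSeq (GRCm38.p6), 5′ to 3′ on the strand of the gene. Capitals mark the core GAAANNGAAA on either strand (on the opposite strand it reads TTTCNNTTTC), with overlapping matches merged. The windows are chr19:34640639-34640888 (plus strand) for Ifit1, chr12:26456453-26456702 (minus strand) for Rsad2, chr4:156200819-156201068 (minus strand) for Isg15, chr3:146121541-146121790 (plus strand) for Mcoln3 and chr11:6658283-6658532 (plus strand) for Ramp3.
Ifit1: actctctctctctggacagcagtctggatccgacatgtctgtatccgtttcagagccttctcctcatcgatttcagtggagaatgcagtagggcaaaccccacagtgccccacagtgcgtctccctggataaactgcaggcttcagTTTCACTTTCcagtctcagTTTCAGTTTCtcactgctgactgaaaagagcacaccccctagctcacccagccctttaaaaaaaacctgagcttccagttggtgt
Rsad2: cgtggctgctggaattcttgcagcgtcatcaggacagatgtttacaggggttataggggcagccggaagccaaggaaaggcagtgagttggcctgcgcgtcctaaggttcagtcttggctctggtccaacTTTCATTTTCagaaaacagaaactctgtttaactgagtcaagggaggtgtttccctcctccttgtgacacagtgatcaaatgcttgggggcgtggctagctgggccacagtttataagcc
Isg15: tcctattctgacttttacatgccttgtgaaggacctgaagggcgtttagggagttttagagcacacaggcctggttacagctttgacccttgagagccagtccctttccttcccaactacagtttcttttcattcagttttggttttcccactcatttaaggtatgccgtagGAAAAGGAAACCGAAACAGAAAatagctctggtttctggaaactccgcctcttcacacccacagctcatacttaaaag
Mcoln3: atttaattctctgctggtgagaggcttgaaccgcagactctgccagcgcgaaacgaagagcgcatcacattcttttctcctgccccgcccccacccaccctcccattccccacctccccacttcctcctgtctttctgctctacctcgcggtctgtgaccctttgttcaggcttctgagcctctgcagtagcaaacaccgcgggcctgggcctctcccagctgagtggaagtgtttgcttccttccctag
Ramp3: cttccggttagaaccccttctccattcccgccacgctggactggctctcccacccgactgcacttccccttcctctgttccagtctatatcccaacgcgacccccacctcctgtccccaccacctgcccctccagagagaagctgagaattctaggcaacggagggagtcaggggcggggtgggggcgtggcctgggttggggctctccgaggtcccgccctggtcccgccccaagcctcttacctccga

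The matches began at -104 and -85 from the start in Ifit1, at -120 in Rsad2 and at -78 in Isg15, where overlapping copies ran together over 22 bases, and the windows of Mcoln3 and Ramp3 held none. Of the 12 genes with the largest rises, 8 had a RefSeq window, and the core was found in the windows of Ifit1, Rsad2 and Isg15 but not in those of Irf7, Oasl1, Oasl2, H2-Q6 and Rab15. A window of 250 bases before and 50 after the start held the core in 20 of 37 interferon effector genes with a window (54.0%), in 404 of 10117 protein coding genes tested (3.99%), in 11 of 328 called lower (3.35%), and in 1131 of 32851 windows of all genes (3.44%). For the genes called higher the share was not computed, since only 77.7% of the protein coding ones had a window. A match is only a run of letters, and its absence says nothing about sites further away or of another spelling.

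Receptors that sense nucleic acid rose with the effectors. In this list 20 of 24 genes tested were higher (83.3%, against 6.0% of all genes) and none lower, with a median log2 fold change of 2.46. Ddx58, which encodes the RNA sensor RIG-I, had 15.8, 14.5 and 15.3 CPM in WT and 186, 166 and 228 CPM in cKO (log2FC 3.67 ± 0.52, adjusted p 0.000426). Zbp1, a sensor of Z-form nucleic acid that can start necroptosis, went from 1.23, 1.47 and 0.842 to 97.9, 50.6 and 77.8 CPM (log2FC 6.0 ± 1.13, adjusted p 0.00337). The DNA-binding Ifi204 rose from between 5.22 and 8.32 CPM to between 118 and 158 CPM, and the RNA editor Adar from between 49.4 and 60.5 CPM to between 176 and 200 CPM. Ifi213 was close to silent in WT, with 0, 3 and 1 counts, and reached 30.7, 32.0 and 61.3 CPM in cKO. Tlr9, the endosomal receptor for unmethylated DNA, went from 11.4 to 17.8 CPM in WT to 63.4 to 91.3 CPM in cKO (log2FC 2.45 ± 0.55, adjusted p 0.0102), a call that was lost without WT replicate 1 (adjusted p 0.0545) or 2 (0.0519).

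The guanylate-binding proteins and immunity-related GTPases attack the membranes around intracellular pathogens. In this list 15 of 16 genes tested rose (93.75%, against 6.0% of all genes) and none fell (median log2 fold change 4.18). Their summed level went from 43.1 to 48.3 CPM in WT to 440 to 635 CPM in cKO. Gbp9 had 1.09, 0.997 and 1.35 CPM in WT and 40.5, 33.8 and 43.8 CPM in cKO (log2FC 5.09 ± 0.70, adjusted p 0.000336), and Irgm1 went from 13.5 to 19.2 CPM to 129 to 178 CPM. These families consist of close copies, and reads shared by copies are left out of the count, so the value of one member is less certain than that of the family.

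Genes of MHC class I presentation rose. Of 23 MHC class I genes and their partners in peptide loading, 20 rose (87.0%, against 6.0% of all genes), with a median log2 fold change of 1.83. In all 23, against 18.3% of all genes, the cKO libraries lay above all WT libraries. H2-K1, a classical class I heavy chain, had 328, 208 and 246 CPM in WT and 1530, 1215 and 1214 CPM in cKO (log2FC 2.34 ± 0.30, adjusted p 0.000209). B2m, its light chain, and Nlrc5, the transactivator of class I genes, rose by 1.83 (adjusted p 0.00357) and 2.25 (adjusted p 0.000257) on the log2 scale, and H2-Q6 and H2-Q7, near-identical copies that cannot be told apart with certainty, by 6.83 and 6.71. The 11 MHC class II genes had 2 rises (18.2%, against 6.0% of all genes), H2-Eb2 and H2-Oa, both under 2 CPM in every library. The main class II chain H2-Ab1 had 10.2, 45.7 and 60.5 CPM in WT and 41.1, 47.4 and 52.9 CPM in cKO, and these ranges overlapped (log2FC 0.28 ± 0.57, adjusted p 0.828). WT replicate 1 was the low library here.

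Surface proteins of the Ly6 family also rose, 6 of 7 tested (85.7%, against 6.0% of all genes), with a median log2 fold change of 2.56. Ly6a (Sca-1), an antigen of stem cells and of interferon-treated cells, had 1.70, 5.92 and 6.29 CPM in WT and 291, 243 and 330 CPM in cKO (log2FC 5.94 ± 0.64, adjusted p 4.55e-05). Ly6c2, the marker of inflammatory monocytes, went from 44.9, 66.8 and 83.7 to 458, 274 and 420 CPM, and Ly6e from 129, 176 and 157 to 1061, 905 and 1023 CPM. In both, every cKO library was above every WT library.

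Many of the rising genes lay side by side on the chromosomes. A called higher gene was the neighbour of at least 1 other in 354 of 958 cases (36.9%), whereas 11% of the 15945 genes tested that had neighbours on their chromosome lay beside a called higher gene. For the called lower genes the values were 40 of 420 (9.52%) and 5.12%. There were 22 runs of 4 or more neighbouring tested genes that all rose, with 131 genes in all. The longest held 12 genes each, the Ifi200 family on chr1:173350879-174031810 (Aim2 to Ifi205) and the Ly6 family on chr15:74747852-75111970, followed by 11 genes of the Trim5 and Trim30 group on chr7:104218793-104507849 and 10 around the Oas genes on chr5:120648812-120907521 (GRCm38). A run of 6 on chr7:143607659-143784500 held Tnfrsf22, Tnfrsf23 and Tnfrsf26, of which Tnfrsf22 and Tnfrsf23 encode decoy receptors of the death ligand TRAIL. The calls of Tnfrsf22 and Tnfrsf23 were lost without any 1 of the 6 libraries (adjusted p up to 0.109 and 0.128), and that of Trim5 without WT replicate 1 or 2 or cKO replicate 3. Members of such families share sequence, and without strand the reads of overlapping genes cannot be assigned to one of them, so the genes of a run are not independent observations.

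Among genes close to silent in WT, with under 10 counts in each WT library, 226 rose, and 31 of these reached a mean of 5 CPM or more in cKO. Such a gene passed the filter through its cKO libraries, so no share of them is given. Apart from interferon-type genes such as Ifi44, Apol9b and Iigp1, they included Ramp3, Sstr5 and Plekhg4. Ramp3, which makes the calcitonin receptor-like receptor respond to adrenomedullin, had 0, 0 and 1 counts in WT and 19.4, 15.4 and 21.0 CPM in cKO. Its ratio of summed, scaled counts was 934 (95% exact interval 167 to 36910, counting error only; adjusted p 4.03e-05). Sstr5, a somatostatin receptor, had 0.136, 0 and 0.112 CPM in WT and 10.4, 23.8 and 22.6 CPM in cKO (adjusted p 1.2e-07). Plekhg4, a guanine nucleotide exchange factor, had 0.136, 0.352 and 0.393 CPM against 21.9, 19.7 and 21.3 CPM. Among tested genes with under 10 counts in each cKO library 8 fell, and none of these had 5 CPM or more in WT. These genes passed the filter through libraries in which they are higher, so their count is not set against that of the rises.

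Other genes outside the interferon lists rose from a measurable WT level with little spread. Mcoln3, a calcium channel of endosomes and lysosomes, had 1.84, 1.94 and 3.26 CPM in WT and 42.0, 47.1 and 60.2 CPM in cKO (log2FC 4.39 ± 0.28, adjusted p 1.98e-07). Rab15, a GTPase of endosomal recycling, had 0.477, 0.469 and 1.24 CPM in WT and 67.8, 97.4 and 85.8 CPM in cKO (log2FC 6.80 ± 0.84, adjusted p 8.09e-05). Axl, a receptor tyrosine kinase of the TAM family that takes up apoptotic cells and dampens interferon responses, had 22, 33.1 and 37.2 CPM in WT and 293, 271 and 307 CPM in cKO (log2FC 3.23 ± 0.30, adjusted p 1.96e-05). In all of these the groups stood far apart. Csf1, the gene of M-CSF itself, rose from 6.86 to 11.1 CPM in WT to 44.9 to 79.8 CPM in cKO (log2FC 2.75 ± 0.50, adjusted p 0.00251). It was 1 of 6 rises among 19 inflammatory cytokines tested (31.6%, against 6.0% of all genes), of which none fell. The count was 9 with the replicate block and 10 with the block and only day 3 libraries. Tnf, the best known of them, had 232, 73.8 and 97.6 CPM in WT and 230, 85.7 and 115 CPM in cKO, with both replicate 1 libraries high (log2FC 0.10 ± 0.51, adjusted p 0.938).

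Cell death genes rose in part. Of 37 genes of the BCL2 and caspase families and their ligands, 7 rose (18.9%, against 6.0% of all genes) and none fell. Without WT replicate 2 the number of rises was 4, whereas with the block and only day 3 libraries 11 rose and 1 fell. Pmaip1 (NOXA), a BH3-only killer protein, had 6.48, 5.51 and 8.14 CPM in WT and 34.5, 32.8 and 31.9 CPM in cKO (log2FC 2.30 ± 0.30, adjusted p 0.000258). Bcl2l11 (BIM), another BH3-only protein, had 60.0, 59.7 and 71.0 CPM in WT and 211, 151 and 188 CPM in cKO (log2FC 1.53 ± 0.22, adjusted p 0.000487). Neither gene overlapped between the genotypes. Casp4, the inflammatory caspase that senses lipopolysaccharide, rose by 2.28 on the log2 scale (SE 0.43, adjusted p 0.00318). Of 30 p53 targets, 4 rose (13.3%, against 6.0% of all genes) and 1 fell (3.33%, against 2.64%), with a median log2 fold change of -0.14. Only 2 rises were left without WT replicate 2. With only the day 3 libraries fitted 5 rose and 7 fell, and with the block as well 7 and 7. In the fit of 18 libraries the rises were Pmaip1, Perp, Plk2 and Ddb2, and the fall was Zmat3. The call of Ddb2 was lost without any 1 of the 6 libraries, with only day 3 libraries (adjusted p 0.0671), without a filter, and in the stranded column, where its log2FC was 0.15 (adjusted p 0.699). That of Plk2 was lost without WT replicate 2, and that of Zmat3 without WT replicate 1 or cKO replicate 1 or 3. The other 25 were not called. Cdkn1a (p21) had 439, 341 and 349 CPM in WT and 369, 331 and 280 CPM in cKO (log2 fold change -0.20, adjusted p 0.752), and Mdm2 had 530, 348 and 537 CPM in WT and 312, 310 and 311 CPM in cKO (log2 fold change -0.60, adjusted p 0.151, and 0.0306 with only day 3 libraries). Among 37 genes of the DNA damage response 1 was called, Parp1, a share of 2.70% lower, near the 2.64% of all genes. Parp1 fell by 0.53 on the log2 scale (SE 0.14, adjusted p 0.0222), and its call was lost without WT replicate 1 or 2 or cKO replicate 2 or 3. With only the day 3 libraries fitted, 7 genes of that list fell, and 9 with the block as well.

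Genes of amino acid supply and the stress response rose in part. Of 30 genes of amino acid supply and the integrated stress response, 5 rose (16.7%, against 6.0% of all genes) and 1 fell (3.33%, against 2.64%). Their median log2 fold change was 0.46. With only the day 3 libraries fitted 11 rose and 2 fell, or 14 and 2 with the block as well. Ddit3 (CHOP) had 6.27, 6.63 and 8.48 CPM in WT and 41.6, 30.2 and 36.6 CPM in cKO (log2FC 2.34 ± 0.42, adjusted p 0.00235). Trib3, a target of CHOP, went from 4.98, 3.87 and 4.83 to 34.1, 33.0 and 26.9 CPM (log2FC 2.78 ± 0.54, adjusted p 0.0041). Glul, which makes glutamine, was the gene that fell, from 378, 283 and 368 to 153, 174 and 141 CPM (log2FC -1.14 ± 0.27, adjusted p 0.0153), a call that was lost without WT replicate 1 or cKO replicate 1 or 3 (adjusted p up to 0.0655).

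The falls were smaller and included abundant macrophage genes. Among the 150 most abundant genes of WT cells 15 (10%) were called, near the 8.65% of all genes, 14 of them lower (9.33%, against 2.64%) and 1 higher. Ranking by the WT level alone favours falls. In the highest of the 5 groups by mean level over both genotypes, 4.6% of genes fell. Stab1, a scavenger receptor for oxidised lipoprotein and apoptotic cells, had 3645, 3141 and 2706 CPM in WT and 979, 1084 and 929 CPM in cKO (log2FC -1.67 ± 0.26, adjusted p 0.000978). Lrp1, an endocytic receptor for lipoproteins and protease complexes, went from 4139, 5467 and 5178 to 1761, 2530 and 2403 CPM (log2FC -1.14 ± 0.26, adjusted p 0.011, and 0.0583 without cKO replicate 1). Lgals1 (galectin-1) fell from 1053, 808 and 689 to 415, 352 and 435 CPM (log2FC -1.08 ± 0.20, adjusted p 0.00337). In each of these the cKO libraries were below all WT libraries. Among genes of middle abundance, Rpl29, a protein of the large ribosomal subunit with many pseudogene copies that make its count uncertain, went from 94.4, 125 and 124 to 19.6, 15.9 and 24.2 CPM (log2FC -2.52 ± 0.21, adjusted p 6.63e-06). Crip1, a small LIM protein, fell by 1.98 on the log2 scale (SE 0.30, adjusted p 0.00069), Abcb4, a phospholipid transporter, by 1.85 (SE 0.19, adjusted p 3.37e-05), and the noncoding transcripts Gm42031 and Gt(ROSA)26Sor by 2.85 (adjusted p 0.000456) and 2.78 (adjusted p 0.000687).

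Genes of proliferation were lower on average, but whether they were called depended on the libraries in the model. Of 40 mitosis genes, 39 had a negative log2 fold change, 30 had all cKO below all WT libraries (15.8% of all genes did), and the median was -0.55, yet 1 was called, Pttg1 (securin), and it rose (log2FC 1.03 ± 0.22, adjusted p 0.00739). With only the 6 day 3 libraries fitted 28 mitosis genes fell, with the block as well 34, with DESeq2 3, and with the block in the fit of 18 libraries none. The summed level of the list was 4389, 4515 and 3147 CPM in WT and 2695, 2582 and 2715 CPM in cKO, without overlap, and it was 4102, 1954 and 5185 CPM in the WT libraries of day 7, which enter the spread of the fit of 18. Leaving out WT day 7 replicate 2, the low one, gave 20 falls. Mki67, the proliferation antigen Ki-67, had 707, 766 and 501 CPM in WT and 299, 286 and 366 CPM in cKO (log2FC -1.05 ± 0.37, adjusted p 0.0887, and 0.00496 with only day 3 libraries). Top2a, the topoisomerase that untangles sister chromatids, had 486, 496 and 367 CPM in WT and 323, 314 and 318 CPM in cKO (log2 fold change -0.50, adjusted p 0.339, and 0.0225 with only day 3 libraries). The replication-coupled histone genes, which supply canonical histones in S phase, had a median of -0.37 and no call among 40, against 9 falls with only the day 3 libraries and 11 with the block as well. For 40 replication genes the median was -0.23, with 0, 6 and 7 falls in the same 3 fits, and for 24 genes of sterol synthesis it was -0.43, with 0, 12 and 12. Of 35 cyclins, inhibitors and E2F genes 1 was called, a rise (2.86%, against 6.0% of all genes). There were 2 rises and 7 falls with only the day 3 libraries, 2 and 8 with the block as well, and 2 and 3 in DESeq2. The call was Cdkn1c (p57), a cyclin-dependent kinase inhibitor, which rose from 1.16, 1.70 and 1.74 to 9.43, 9.92 and 14.7 CPM (log2FC 2.88 ± 0.37, adjusted p 0.000225).

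Genes of nucleotide synthesis fell in part. Of 46 genes, 5 fell (10.9%, against 2.64% of all genes) and none rose, with a median log2 fold change of -0.23. All cKO libraries lay below all WT libraries in 23 genes, against 15.8% of all genes. The numbers were 16 falls and 3 rises with only the day 3 libraries and 17 and 4 with the block as well. In the fit of 18 libraries they were 4 falls and 2 rises with the block, 8 and 1 in DESeq2, and 3 and 1 without a filter. Without 1 of the day 3 libraries, the falls numbered 2 to 5. Paics, an enzyme of purine synthesis, had 172, 146 and 129 CPM in WT and 95.4, 87.2 and 97.0 CPM in cKO (log2FC -0.67 ± 0.14, adjusted p 0.00716). Gmpr, which turns GMP into IMP, had 12.3, 9.85 and 10.1 CPM in WT and 4.84, 7.32 and 5.65 CPM in cKO (log2FC -0.86 ± 0.16, adjusted p 0.00289). The other falls were Adssl1, Prps2 and Uprt. The call of Prps2 was lost in 11 of 14 alternatives. Among them were the replicate block (adjusted p 0.052), only the day 3 libraries (adjusted p 0.073) and each leave-out but that of WT replicate 3. The call of Uprt was lost in the same leave-outs. That of Adssl1 was lost without WT replicate 2 or 3 or cKO replicate 1 or 3. The 13 protein genes of the mitochondrial genome took 0.809, 0.701 and 0.650% of all counts in WT and 0.331, 0.393 and 0.644% in cKO. The cKO libraries were lower, but cKO replicate 3 nearly reached WT replicate 3, and of 7 such genes tested 1, mt-Nd1, was called (log2FC -1.05 ± 0.29, adjusted p 0.0321), against 5 with the replicate block and in DESeq2, and 4 with RLE scaling. That call was lost without WT replicate 1 or 2 or cKO replicate 1 or 2.

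**Figure D4:**
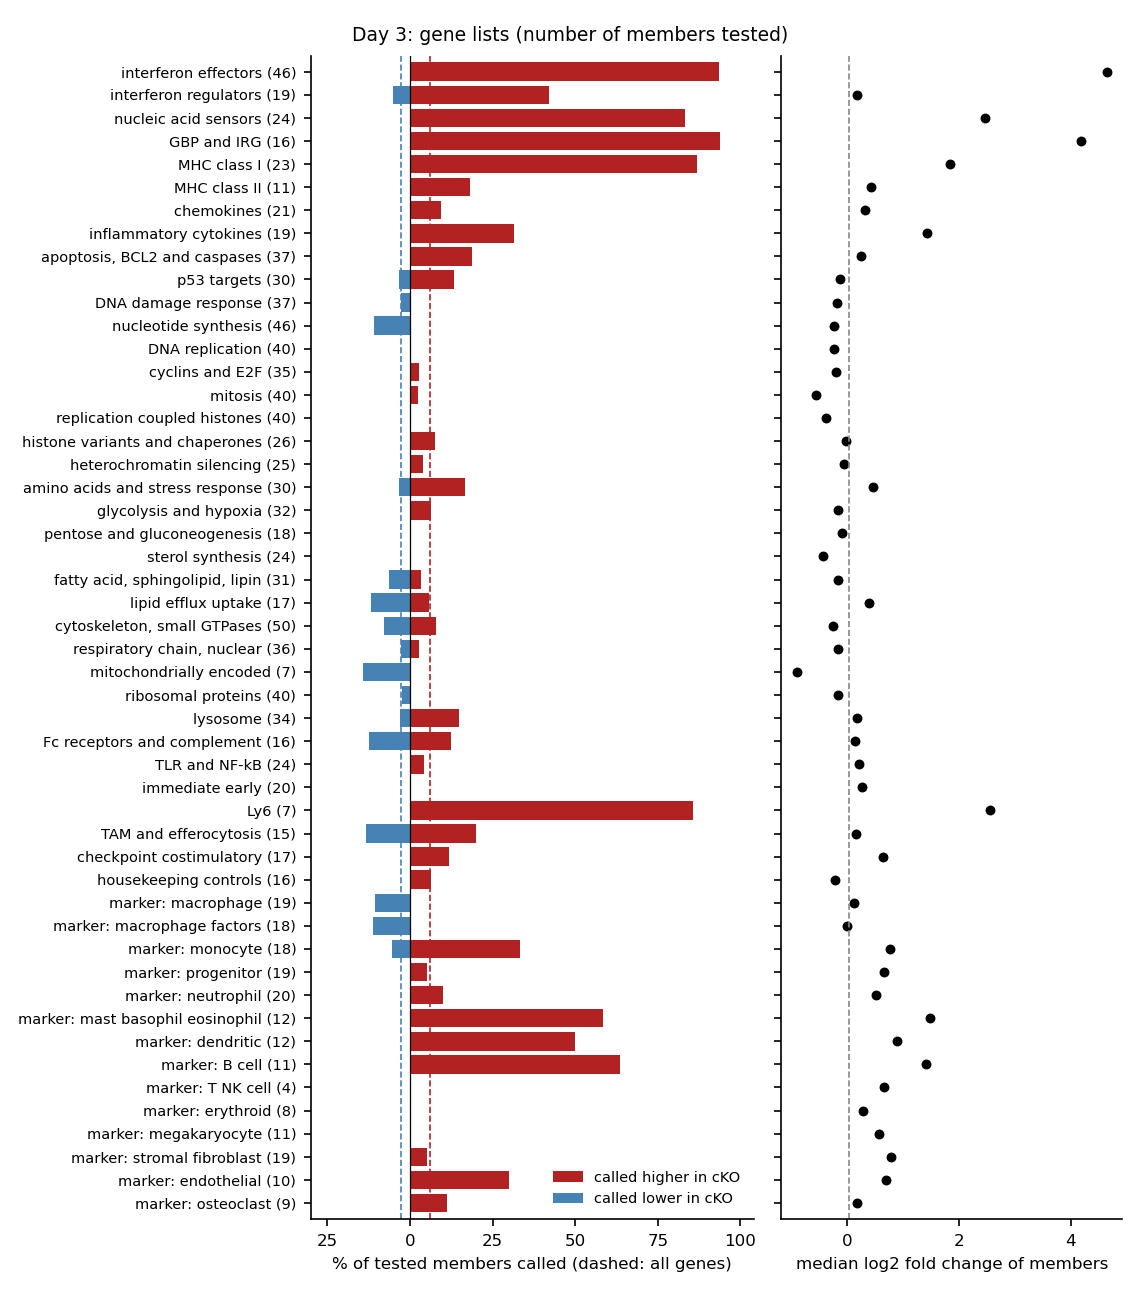
Gene lists on day 3, with the number of members tested in brackets; the left panel gives the share of tested members called higher (red, to the right) and lower (blue, to the left) in cKO, with dashed lines at 6.0% and 2.64% for all genes tested, and the right panel the median log2 fold change of the members, with a dashed line at 0.04 for all genes. Interferon effectors, GBP and IRG, sensors, MHC class I and Ly6 genes stand out to the right, and the mitosis and mitochondrially encoded lists have the lowest medians.

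The genes that mark cell types moved less evenly. Of 19 macrophage markers 2 were called, and both fell (10.5%, against 2.64% of all genes). With the replicate block 3 rose and 3 fell, Itgam among the falls (adjusted p 0.017). Cd68, a lysosomal glycoprotein, went from 878, 564 and 543 to 391, 346 and 499 CPM (log2FC -0.68 ± 0.20, adjusted p 0.0401). Its call was lost without WT replicate 1 or cKO replicate 1 or 2. Of 18 monocyte markers 6 rose (33.3%, against 6.0% of all genes) and 1 fell (5.56%, against 2.64%), or 6 and 4 with only the day 3 libraries. Among these rises, Ly6c2 also lies in the run of Ly6 genes, and Ms4a4c and Ms4a6c lie in a run of 6 rising neighbours on chromosome 19. Plbd1, a granule protein, went from 27.5, 20.2 and 29.4 to 266, 250 and 191 CPM (log2FC 3.2 ± 0.65, adjusted p 0.0056), and S100a4 was the one that fell. The progenitor markers had a median log2 fold change of 0.66 with 1 call, Gata2 (log2FC 1.60 ± 0.32, adjusted p 0.0041), a share of 5.26% higher against 6.0% of all genes. Mpo had 171, 186 and 278 CPM in WT and 401, 300 and 291 CPM in cKO (log2FC 0.64 ± 0.43, adjusted p 0.418). With the block 2 progenitor markers rose, and 5 with only the day 3 libraries.

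Markers of some cells other than macrophages rose in cKO, at low levels. Of 12 genes of mast cells, basophils and eosinophils 7 rose (58.3%, against 6.0% of all genes). The summed level of this list went from 20.1 to 34.0 CPM in WT to 59.0 to 101 CPM in cKO, with Mcpt1, Mcpt2 and Tpsb2 at 0 counts in all 6 libraries. Prss34, a protease of basophils, had 0.750, 1.17 and 2.08 CPM in WT and 15.8, 8.96 and 6.8 CPM in cKO (log2FC 2.94 ± 0.47, adjusted p 0.000423). Of 11 B cell genes 7 rose (63.6%, against 6.0% of all genes), and their sum was 112 to 138 CPM in WT and 141 to 209 CPM in cKO. The dendritic cell list gave 6 rises among 12 (50%, against 6.0% of all genes), with a sum of 119 to 177 CPM in WT and 354 to 497 CPM in cKO. Bst2 was among the rises, a gene that interferon induces and that also stands among the effectors, and so was Ly6d, which lies in the run of Ly6 genes. The call of Bst2 was lost without WT replicate 2 or 3 or cKO replicate 1 or 3. Without WT replicate 2 the rises numbered 4 in the mast cell list, 4 in the B cell list and 3 in the dendritic list. They were also 4 in the B cell list without cKO replicate 1 or 3, and 3 in the dendritic list without WT replicate 3 or cKO replicate 1 or 3. Markers of T and NK cells, red cells and megakaryocytes had no call, but without WT replicate 3 there were 6 rises among the 11 megakaryocyte markers, whose median log2 fold change went from 0.56 to 1.79. The summed level of the red cell markers was lower in cKO, 251 to 258 CPM against 265 to 433 CPM in WT, and that of the megakaryocyte markers overlapped (586 to 742 CPM in WT, 526 to 771 CPM in cKO). The sum of 19 stromal markers was 24.5 to 94.0 CPM in WT and 62.4 to 149 CPM in cKO, with 1 rise, or 7 with the block and only day 3 libraries. In bulk RNA, fewer cells of a type and less RNA per cell cannot be told apart, and the part of these other cells in the results above was not tested.

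The same comparison on days 5 and 7 used other libraries of the same design, with 392 rises and 105 falls (2.46% and 0.658%) on day 5 and 181 and 110 (1.13% and 0.689%) on day 7. Of the 958 genes that rose on day 3, 340 (35.5%) also rose on day 5, which is 86.7% of the rises of that day, and 85 (8.87%) on day 7, or 47.0% of those. Of the 422 that fell, 75 (17.8%) also fell on day 5 and 40 (9.48%) on day 7. The day 3 fold change of the interferon effectors, a median of 4.64, stood beside medians of 3.06 on day 5 and 0.61 on day 7, and that of GBP and IRG genes, 4.18, beside 3.07 and 0.75. Progenitor markers had medians of 0.66, 1.78 and 2.29 on the 3 days, and mitosis genes -0.55, -0.11 and 0.36. Tested as a difference between days, no gene was called for day 5 minus day 3 (740 at an unadjusted p under 0.05, and 3 called in DESeq2), and 7 genes (0.0439%) were called for day 7 minus day 3 (2491 unadjusted). The latter count depended on the fit, with 475 calls in DESeq2 and 155 with the replicate block. Rab15 and Rpl29 were called on all 3 days, with log2 fold changes of 6.8, 6.32 and 6.4 for Rab15 and of -2.52, -2.08 and -2.08 for Rpl29.

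**Figure D5:**
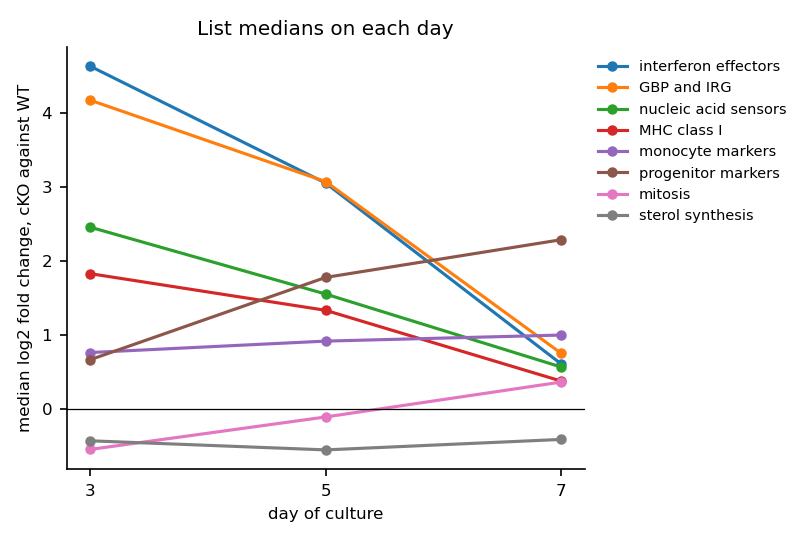
Median log2 fold change of cKO against WT over the tested members of 8 gene lists on days 3, 5 and 7 of culture (x axis), with 3 WT and 3 cKO libraries on each day. The interferon lists fall from medians between 1.83 and 4.64 on day 3 to below 1 on day 7, the progenitor markers rise from 0.66 to 2.29, and the mitosis genes go from -0.55 to 0.36.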

How the data were processed

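RNA was depleted of ribosomal RNA and made into libraries with NEBNext kits that, as used, did not mark the strand (either strand column held about the same total). By the methods and the submitters' processing notes, reads were trimmed with Cutadapt and aligned with STAR to mm10, the same assembly as GRCm38. The deposited values are raw counts, which the authors obtained from STAR's gene counting with no normalization. Only reads that map once and to a single gene enter, so genes with close copies lose reads. Unmapped (8.23 to 11.5%), multimapping (8.77 to 9.9%) and ambiguous (5.05 to 5.75%) reads and those outside annotated exons are listed apart. They were left out of library sizes. Gene names and positions came from GENCODE vM21.

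Here, the 18 time course libraries were fitted in one model with 1 mean per genotype and day (edgeR 4.0.16 quasi-likelihood test, limma 3.58.1, R 4.3.3, TMM, filterByExpr by group with a smallest count of 10 and a smallest total of 15). Benjamini-Hochberg adjustment was over 15955 genes, with calls at an adjusted p under 0.05. The SE was derived from the log2 fold change and its F statistic, the prior count was 2, and CPM are TMM-scaled. Interactions tested whether effects differ between days. Ratios of genes with 1 to 3 WT counts carry an exact (Clopper-Pearson) interval. The method was tested on simulated data with known changes.

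Genes were named if targeted or near Lyz2, among the 12 largest rises or falls (mean log2 CPM of at least 3, groups apart), among the best called members of a list, abundant, close to silent in WT, or called between days. Cdkn1a, Mdm2, H2-Ab1, Tnf, Csf1r, Kit, Itgam, Adgre1, Ifnar1 and the genes that name a run of neighbours were chosen after their values were seen. The members and the 52 lists were chosen with earlier results of these data known, and lists share some genes. Same-numbered WT and cKO libraries of day 3 deviated together (correlations 0.419, 0.126 and 0.252), so the replicate number was taken to pair them. WT replicate 2 with cKO replicate 3 (0.123) and WT replicate 3 with cKO replicate 2 (0.214) did so as well, and the remaining combinations were negative. Replicates 2 and 3 are thus not shown to be pairs. Alternatives were only day 3 libraries, RLE, DESeq2 1.42.0, no filter, a mean of at least 1 CPM, a replicate block, a stranded column, a log2 fold change of at least 1, and each library left out. The other 63 libraries of the series were not used here. Some genes that the naming rule would give are not reported here.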

Additional observations from a re-analysis of the deposited data

Results flagged for a closer look

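For 7 genes the cKO effect differed between day 3 and day 7 by the interaction test of edgeR (difference of log2 fold changes, day 7 minus day 3). In 5 of them a rise on day 3 was smaller or gone on day 7. Ccl8, a monocyte chemokine with 2 counts over the WT libraries of day 3, had log2 fold changes of 6.29 on day 3 and -2.73 on day 7 (difference -9.01, SE 1.33, adjusted p 0.0293). Gm43068, an unclassified transcript beside Oas2, had 5.59 and 0.67 (difference -4.92, SE 0.77, adjusted p 0.0293), and Cox6a2, a subunit of cytochrome oxidase used in muscle and plasmacytoid dendritic cells, 3.33 and -0.89 (difference -4.22, SE 0.65, adjusted p 0.0293). For Irf9 they were 1.75 and 0.03 (difference -1.72, SE 0.27, adjusted p 0.0293), and for Nectin4, an adhesion protein, 2.99 and 0.51 (difference -2.49, SE 0.41, adjusted p 0.0378). A fall on day 3 stood against a rise or a positive value on day 7 in the other 2. L1cam, an adhesion protein of neurons, had -0.64, a call lost without any day 3 library but WT replicate 1, and 1.04 (difference 1.68, SE 0.26, adjusted p 0.0293), and Dagla, which makes the endocannabinoid 2-arachidonoylglycerol, -0.93 and 0.75 (difference 1.68, SE 0.27, adjusted p 0.0378). Each of the 7 was called in 6 to 9 of the 16 or 18 alternatives that could be computed for it.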

How the results depend on the processing

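The number of genes called on day 3 was 1380, and 2406 with only the 6 day 3 libraries fitted, 3031 with the replicate block as well, and 843 with a minimum log2FC of 1 in size. It ranged from 779 to 2204 when single libraries of the time course were left out, with the lowest without WT day 3 replicate 2 and the highest without WT day 7 replicate 2. Rises (958) numbered 1601 with the block and only day 3, and 527 to 1333 in the leave-outs. Falls (422) numbered 1132 with only day 3, 1430 with the block as well, 727 in DESeq2, 97 with a log2FC of -1 or below, and 216 to 871 in the leave-outs. For day 5 minus day 3 there were 0 calls, 3 in DESeq2 and 0 to 2 in the leave-outs, and for day 7 minus day 3 there were 7, with 475 in DESeq2, 65 without a filter, 155 with the replicate block, 0 in the stranded column and 0 to 151 in the leave-outs. RLE scaling, a mean of at least 1 CPM, no filter and the block in the fit of 18 libraries kept the day 3 calls at 1207 to 1674. Of the 1380 calls, 587 (440 higher, 147 lower) held in every day 3 alternative without a fold threshold that was set at the start and tested the gene. The choice of the day 5 and day 7 leave-outs was made after seeing the data. Of the genes named, 90 were called, none of these changed direction, and 20 lost the call in at least 1 day 3 alternative. Of 14 not called, 5 were called in at least 1. The log2FC of 2 uncalled genes turned with a library left out, from -0.20 to 0.74 for H2-Ab1 (negative without WT replicate 1) and from -0.44 to 0.71 for Tnf (negative without WT replicate 2 or 3 or cKO replicate 1). The replicate block in the fit of 18 libraries changed the call of 2 genes named, Itgam and Prps2, and no other. Depth limits genes under about 10 counts, and 3 libraries per genotype limit the rest.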

Other observations

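On the X chromosome, chosen after its values were seen, the balance of calls was turned. Of 442 X-linked genes tested, 6 rose (1.36%) and 25 fell (5.66%), with a median log2 fold change of -0.11, against 952 rises (6.14%) and 395 falls (2.55%) among 15494 autosomal genes with a median of 0.04. In the second highest of 5 groups by mean level, 14 of 102 X-linked genes fell (13.7%) against 3.37% of 3086 autosomal ones. With only the day 3 libraries in the model, 59 of 410 X-linked genes fell (14.4%) and 7.68% of autosomal ones, and without WT replicate 1 or cKO replicate 2 the X-linked falls numbered 7 (1.54% and 1.55%), against 1.3% and 1.31% of autosomal genes. All 6 libraries had 0 or 1 count of Xist and 945 to 1390 counts of the Y-linked Ddx3y, so they do not differ in the sex of the cells by these genes.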
